A study of Mus musculus with 20 samples.

Results

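The genes described here are 34 targets and regulators of the ATF4 and amino acid response, out of 18193 genes measured on expression arrays of mouse erythroid progenitors. They were listed by name from what the response is known to contain, with earlier results of these data already known. All 34 were matched to at least 1 probe set that the array annotation gives to that gene alone, and each was read from its brightest such probe set (highest mean of the 20 arrays). By role they comprised 6 transcriptional regulators, 7 stress effectors, 8 enzymes of serine, asparagine and sulfur amino acid synthesis, 6 amino acid carriers and 7 cytosolic tRNA synthetases.

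ATF4 is a transcription factor whose mRNA is translated better when the initiation factor eIF2 is phosphorylated. In vertebrate cells eIF2 is phosphorylated by kinases that sense missing amino acids, unfolded protein in the endoplasmic reticulum (ER), viral RNA or, in erythroid cells, lack of heme. ATF4 then activates genes that make, import and charge amino acids, together with further transcription factors and feedback inhibitors, and a prolonged response can favour cell death. In erythroid precursors the heme-regulated kinase, encoded by Eif2ak1, couples this pathway to globin synthesis.

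RNA came from colony-forming erythroid progenitors (CFU-E), which need the hormone erythropoietin (Epo) to survive and become red cells. They were isolated from the livers of BALB/c embryos at day 13.5 by lysing red cells and removing other cell types, and the mature Ter119-positive cells, with antibodies and magnetic beads. In the Epo series 12 arrays followed cells given 0.5 U/ml Epo at 0 to 8 h in hourly steps and at 14, 19 and 24 h, and 8 arrays followed cells without Epo at 0 to 7 h. Each treatment and time had 1 array. All cells of both series came from the same strain, stage and sorting procedure. The labels do not say whether both series came from 1 preparation or were run together, and a difference in preparation or day and the effect of Epo cannot be told apart if they did not. What the cells went through before time 0 is described inconsistently: the series text has them fresh from the sort and starved for 1 h, the sample text has them grown with serum and Epo first. No label gives a separate culture for each hour, and p-values then measure scatter between successive arrays, which may be technical. In such bulk samples a larger share of a cell type and more RNA per cell cannot be told apart.

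ATF4 acts at composite sites that join an ATF site and a C/EBP site, the C/EBP-ATF response element, here searched as TGATGNAA on both strands. The windows ran from 250 bases before to 50 bases after the RefSeq gene start in assembly GRCm38.p6. Of the 34 members, 30 had a window, and 12 of these 30 held the element, against 4.51% of the 27025 genes with windows. Because the members were listed as known response genes, this share describes the list and is not a finding about these cells. The 58 bases or fewer around the match are printed for 9 members, 5′ to 3′ on the strand of the gene, with the element in capitals (TTGCATCA and TTTCATCA are the element read from the opposite strand). These 9 are shown because a whole match lies before the gene start. Of them 5, Atf3, Nupr1, Chac1, Herpud1 and Aars, had a mean level at 1 to 7 h without Epo at least 1 above their 0 h level on the log2 scale. Asns, Gars, Slc7a11 and Vldlr did not.
Atf3, chr1:191183411-191183468, minus strand: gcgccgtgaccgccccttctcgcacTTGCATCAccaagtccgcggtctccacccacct
Nupr1, chr7:126625548-126625605, minus strand: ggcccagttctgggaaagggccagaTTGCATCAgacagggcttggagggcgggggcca
Chac1, chr2:119351024-119351081, plus strand: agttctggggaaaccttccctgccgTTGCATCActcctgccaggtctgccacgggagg
Herpud1, chr8:94386292-94386349, plus strand: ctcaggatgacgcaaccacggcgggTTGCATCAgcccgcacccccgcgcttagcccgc
Aars, chr8:111033705-111033762, plus strand: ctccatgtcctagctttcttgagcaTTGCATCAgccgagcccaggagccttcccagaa
Asns, chr6:7693210-7693257, minus strand: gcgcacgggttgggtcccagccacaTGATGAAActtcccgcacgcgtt
Gars, chr6:55037946-55038000, plus strand: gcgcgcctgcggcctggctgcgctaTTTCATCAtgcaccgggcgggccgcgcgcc
Slc7a11, chr3:50443628-50443685, minus strand: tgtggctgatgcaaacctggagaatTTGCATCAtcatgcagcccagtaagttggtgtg
Vldlr, chr19:27216795-27216852, plus strand: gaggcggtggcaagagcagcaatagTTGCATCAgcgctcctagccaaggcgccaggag

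Slc7a11 and Aars each held the element at 2 places; that of Slc7a11 outside the capitals lies in lower case upstream of them, and that of Aars lies after the start, outside the printed stretch. Slc1a4, Trib3 and Yars held it at or after the start and are not printed. Without Epo Slc1a4 and Trib3 also had a mean level at 1 to 7 h at least 1 above their 0 h level, and Yars did not. The cAMP response element TGACGTCA, a palindrome, was in the window of Ppp1r15a only, 1 of 30 members against 2.03% of all genes with windows. Its letters, in capitals, begin 12 bases before the start.
Ppp1r15a, chr7:45526269-45526305, minus strand: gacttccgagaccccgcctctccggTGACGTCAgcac

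The ER stress element was in no member window, and in 0.137% of all. Cth, Slc7a5, Wars and Nars are named only. These matches are letters in a window; whether a factor bound them was not measured.

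The 2 series differed already at 0 h, and markers of liver cells moved with them. At 0 h 3.03% of all genes lay at least 1 apart on the log2 scale. Of 11 hepatocyte markers measured, all 11 were higher at 0 h in the series with Epo (median log2 difference 1.50), and 9 were higher and none lower at 1 to 7 h (median 1.05). The log2 of their summed level was 15.11 at 0 h with Epo and 14.03 without, lay between 12.87 and 14.52 against 12.35 and 13.65 at 1 to 7 h, and between 8.72 and 11.29 at 14 to 24 h. Of 10 erythroid markers measured 7 were lower with Epo at 1 to 7 h, among them the stem cell factor receptor gene Kit (-2.17 ± 0.21) and the transcription factor gene Gfi1b (-1.58 ± 0.13). Kit was already lower at 0 h by -1.4, whereas Gfi1b lay at -0.15 there. The summed erythroid level lay between 13.71 and 14.62 with Epo and 14.21 and 15.23 without. Defining erythroid genes were high, with Tfrc at a mean of 12.9 and Klf1 at 11.9 with Epo, while the 1 usable probe set of Hba-a1 was at 3.37 (mean above that of 26.4% of genes). At 0 h 8 of the 10 erythroid and 11 of the 12 granulocyte markers were lower in the series with Epo (median -0.27 and -0.54). The largest granulocyte gaps were those of Mpo (-2.26) and Prtn3 (-2.13). The log2 of the summed granulocyte level was 9.45 at 0 h with Epo and 11.03 without. Over all 18193 genes 9382 were lower and 8800 higher at 0 h (median -0.01). At 1 to 7 h granulocyte markers gave 1 higher and 2 lower of 12, macrophage markers 0 of 10 in either direction and endothelial markers 1 and 1 of 7. Over all arrays the log2 of the summed level lay between 8.62 and 11.03 for granulocyte, 6.86 and 7.63 for macrophage and 6.09 and 6.73 for endothelial markers. The part of these cell types in the members' differences was not tested.

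The first comparison asked how the response genes stood with Epo against without it, averaging the 7 hours from 1 to 7 h at which both series have an array (level with Epo minus level without, in log2, ± SE, 7 pairs). Of the 34 members 21 were lower and 2 higher with Epo at an adjusted p under 0.05 (limma, Benjamini-Hochberg over all genes), and 11 passed in neither direction. Over all genes 20.2% were lower and 18.2% higher. The median difference of the members was -0.52 on the log2 scale against 0.03 over all genes. By role, 5 of 6 regulators, 5 of 7 stress effectors, 5 of 6 carriers and 4 of 7 synthetases were lower and none was higher, while the 8 synthesis enzymes gave 2 lower and 2 higher. All 7 values with Epo lay below all 7 without it for 6 members, Asns, Herpud1, Ppp1r15a, Sars, Shmt2 and Slc38a2, and for 7.31% of all genes. All 7 lay above for Psat1 and Psph, and for 6.56% of all genes. Measured instead from the array at 0 h, the mean level at 1 to 7 h was at least 1 higher for 14 members without Epo (2.19% of all genes) and for 5 with Epo (0.401%). That rule was chosen after values had been seen and has no test. The 14 were Aars, Atf3, Atf4, Cebpb, Chac1, Ddit3, Ddit4, Herpud1, Nupr1, Ppp1r15a, Sesn2, Slc1a4, Slc3a2 and Trib3, and the 5 were Atf3, Chac1, Ddit3, Nupr1 and Trib3.

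**Figure D1:**
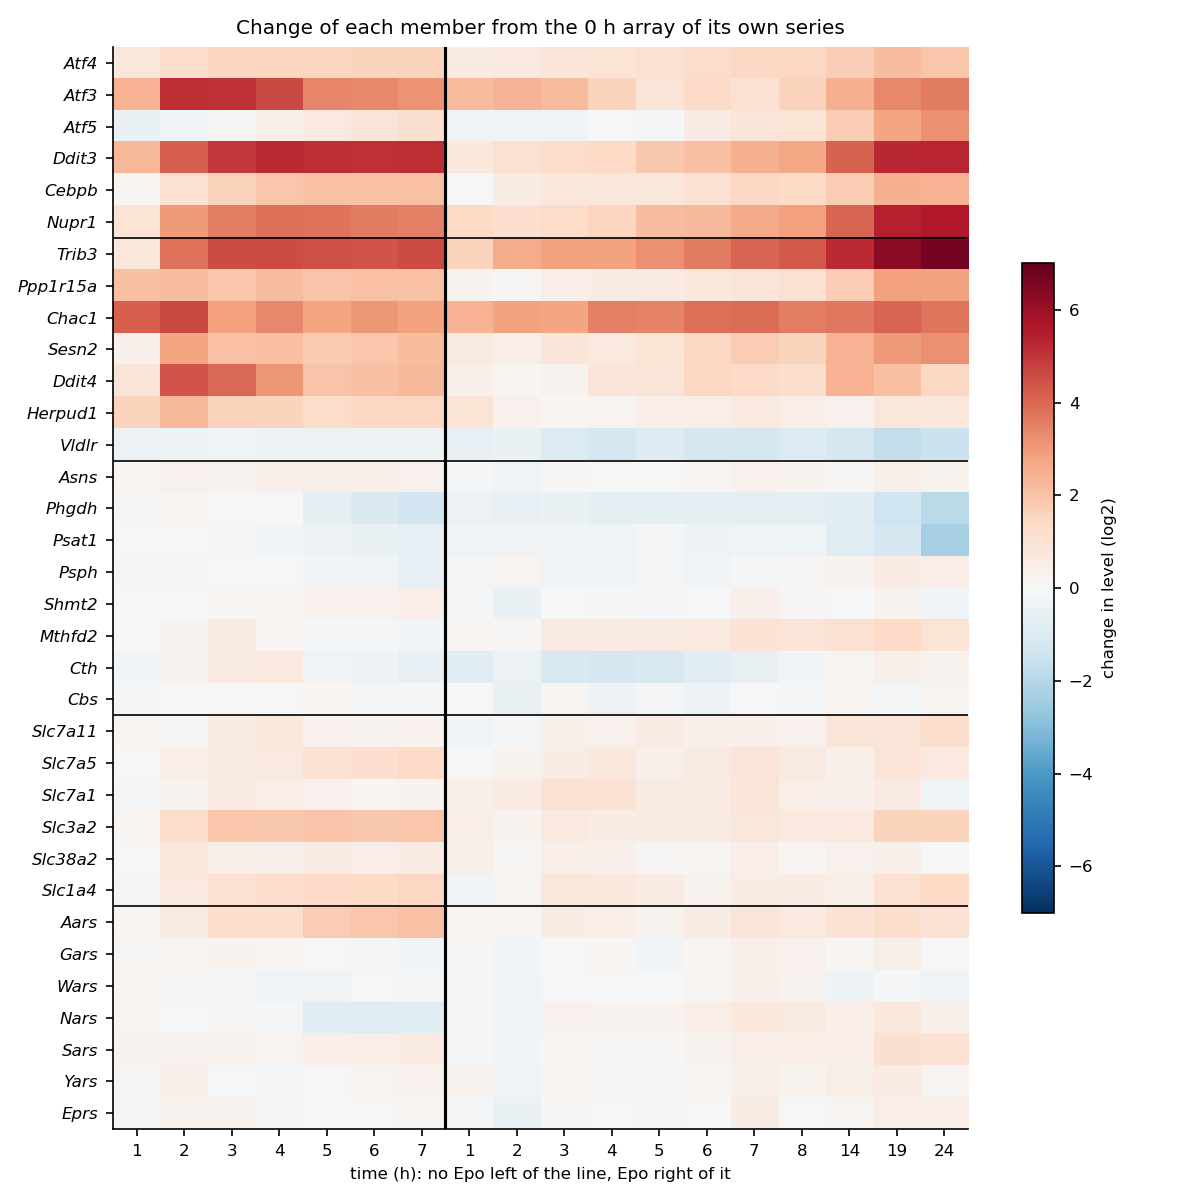
Change in level (log2, colour) of the 34 members from the 0 h array of their own series, with hours without Epo left of the vertical line and with Epo right of it; each cell is 1 array and horizontal lines separate regulators, stress effectors, synthesis enzymes, carriers and synthetases. At 3 h without Epo Atf3 is at 5.14, Ddit3 at 4.94 and Trib3 at 4.57, while Atf5 is at 0.07 and Vldlr at -0.29. With Epo Trib3 reaches 6.69 and Psat1 -2.31 at 24 h.

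Among the regulators Ddit3 showed the largest mean difference of all members. Ddit3 encodes CHOP, a transcription factor of the C/EBP family linked to cell death in prolonged stress. Without Epo its level at 0 to 7 h was 6.39, 8.71, 10.55, 11.33, 11.59, 11.57, 11.52 and 11.55, and with Epo it was 6.51, 7.24, 7.55, 7.80, 7.92, 8.41, 8.63 and 8.99. Both series thus started together, and the series without Epo reached its plateau at 3 to 4 h while the other climbed steadily. The mean difference was -2.90 ± 0.21 (7.46-fold, adjusted p = 2.9e-06, lower in 7 of 7 pairs). The ranges at 1 to 7 h overlapped, but only because 8.71 at 1 h without Epo lay below 8.99 at 7 h with it. As the mean of its 2 probe sets the difference was -1.56 (adjusted p = 4.7e-05), the other and dimmer probe set lying at -0.23. With Epo Ddit3 went on to 9.22 at 8 h, 10.62 at 14 h, 11.79 at 19 h and 11.86 at 24 h, so that the last arrays lay at the plateau seen without Epo.

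Atf4 itself, the factor at the centre of the response, had a bright probe set (mean above that of 98.7% of genes) and moved less. Its level was 10.67 at 0 h without Epo, 11.44 at 1 h and between 11.91 and 12.24 from 2 to 7 h. With Epo it went from 10.55 at 0 h through 11.13 at 1 h to 12.00 at 7 h and 12.71 at 19 h. The series with Epo was lower at each matched hour, with a difference of -0.80 at 3 h and -0.24 at 7 h, and the mean difference was -0.52 ± 0.07 (adjusted p = 0.0002). The level of the mRNA does not show how much of it was translated.

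Atf3, an early stress factor that ATF4 induces, had its highest value of the first 7 h at 2 h in both series. Without Epo it was 3.83 at 0 h, 6.25 at 1 h, 9.0 at 2 h, 8.97 at 3 h, 8.43 at 4 h and then 7.25, 7.17 and 6.95. With Epo it was 4.65 at 0 h, between 5.53 and 7.02 at 1 to 7 h, and 7.14, 8.04 and 8.28 at the late times. At 1 h the value with Epo was the higher by 0.63, and at the other 6 hours it was the lower, with -2.22 at 4 h. The mean difference was -1.41 ± 0.28 (adjusted p = 0.002).

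Nupr1, a small chromatin protein gene of the stress response, was likewise higher with Epo at 1 h and lower with Epo at later hours. Its level without Epo was 4.00, 4.95, 7.00, 7.60, 7.86, 7.79, 7.61 and 7.55 at 0 to 7 h, and with Epo it was 4.50, 5.87, 5.70, 5.79, 6.03, 6.64, 6.78 and 7.17. The curve with Epo was ahead at 1 h, then behind, and nearly level at 7 h. The difference was -0.91 ± 0.28 (adjusted p = 0.021), and it no longer passed without the pair of 2, 3, 4 or 5 h (adjusted p between 0.053 and 0.069), without the time block (0.072) or with the 0 h arrays as a further pair (-0.73, 0.062). With Epo Nupr1 then reached 8.56, 9.92 and 10.11 at 14, 19 and 24 h, above every value without Epo.

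Cebpb, a C/EBP factor that binds the same composite sites, was lower with Epo (-1.18 ± 0.12, adjusted p = 2.6e-05, 7 of 7 pairs). Its level at 1 to 7 h was lowest at 7.61, had a median of 9.34 and was highest at 9.46 without Epo, against 7.02, 7.81 and 8.45 with Epo. The groups overlapped only through the 1 h array without Epo. Atf5, a relative of ATF4 that is also translated when eIF2 is phosphorylated, was the regulator that passed in neither direction (-0.03 ± 0.12, adjusted p = 0.89). Its level fell short of 7 until 4 h in both series, was 7.57 without and 7.62 with Epo at 7 h, and went on to 9.89 at 24 h with Epo.

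**Figure D2:**
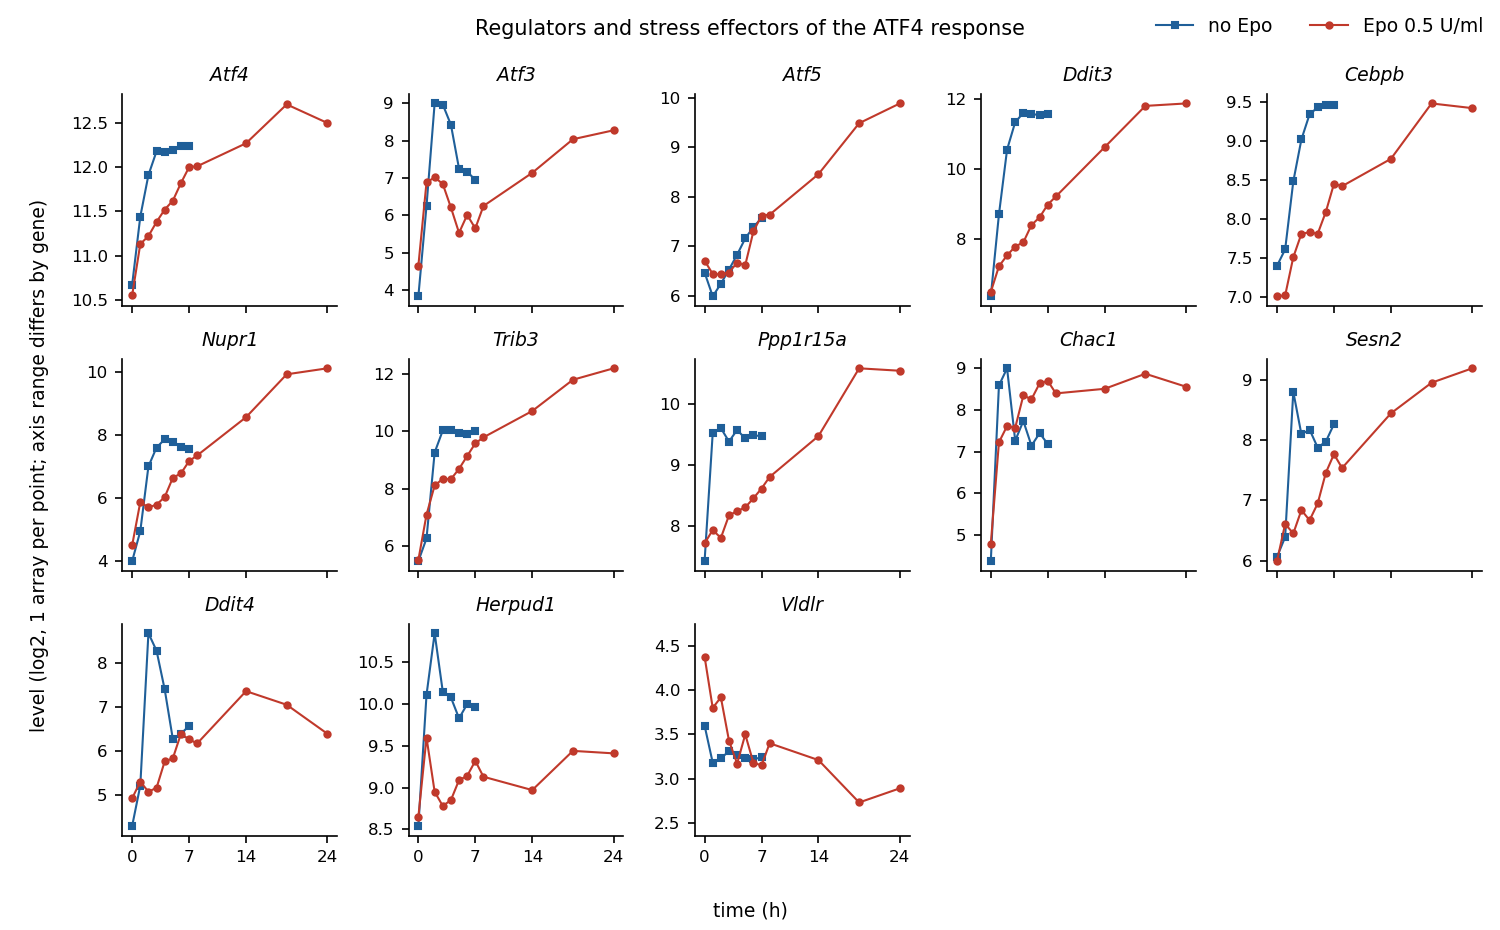
Level (log2) of the 6 regulators and 7 stress effectors against time in hours, with blue squares for arrays without Epo and red circles for arrays with 0.5 U/ml Epo, 1 array per point and an axis range that differs by gene. Ddit3 reaches 11.59 at 4 h without Epo and 11.86 only at 24 h with it, and Atf3, Ddit4 and Sesn2 peak at 2 h without Epo.

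Of the stress effectors Ppp1r15a and Chac1 were lower with Epo by over 1 at the first hour (-1.59 and -1.36). Ppp1r15a encodes GADD34, the subunit that directs a phosphatase to eIF2 and so ends the response. Without Epo it was at 7.42 at 0 h, 9.52 at 1 h and between 9.38 and 9.60 at all later hours, whereas with Epo it lay at 7.71 at 0 h and between 7.80 and 8.61 at 1 to 7 h. The groups did not overlap, and the difference was -1.28 ± 0.12 (adjusted p = 9.7e-06, 7 of 7 pairs). It narrowed from -1.81 at 2 h to -0.86 at 7 h, by 0.14 ± 0.04 per h (adjusted p = 0.016). This slope missed the threshold without the pair of 2, 6 or 7 h (adjusted p between 0.058 and 0.08) and was -0.04 (adjusted p = 0.80) with the 0 h arrays as a further pair. With Epo the level was 10.58 at 19 h, above the plateau without Epo.

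Herpud1, an ER membrane protein gene of protein disposal, also did not overlap. It was at 10.11 at 1 h and 10.85 at 2 h without Epo and between 9.83 and 10.15 later. With Epo it was 9.60 at 1 h and between 8.78 and 9.32 at 2 to 7 h, and did not go above 9.44 at the late times. The difference was -1.03 ± 0.15 (adjusted p = 0.00023). At 24 h with Epo it was 9.41, under the 9.97 seen without Epo at 7 h.

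Trib3, a pseudokinase that restrains ATF4 and AKT, was at 5.47, 6.26, 9.26, 10.03, 10.04, 9.93, 9.89 and 10.02 without Epo at 0 to 7 h. With Epo it was at 5.51, 7.09, 8.11, 8.34, 8.33, 8.69, 9.14 and 9.58, and then at 10.71, 11.80 and 12.20 at 14, 19 and 24 h. The series with Epo was thus ahead by 0.83 at 1 h, behind at 4 h (-1.71) and ahead of the whole untreated series from 14 h. The mean difference of -0.88 ± 0.25 passed (adjusted p = 0.017) but did not without the pair of 3, 4 or 5 h (adjusted p between 0.051 and 0.058) or without the time block (0.20).

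Sesn2 and Ddit4, which both restrain the growth kinase mTORC1, peaked at 2 h without Epo. Sesn2 was 6.39 at 1 h and 8.81 at 2 h and then lay between 7.88 and 8.27, against 6.45 to 7.77 with Epo at 1 to 7 h (-0.98 ± 0.24, adjusted p = 0.0073). Ddit4 was 5.22 at 1 h, 8.69 at 2 h and 6.28 at 5 h, against 5.08 to 6.40 with Epo. Its difference was -3.61 at 2 h and 0.00 at 6 h. The mean of -1.29 ± 0.43 (adjusted p = 0.033) no longer passed without the pair of 2, 3 or 4 h (adjusted p between 0.08 and 0.097), after quantile normalization (0.054) or with the 0 h arrays as a further pair (-1.05, 0.076).

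Chac1 crossed over. It encodes an enzyme that breaks down glutathione. Without Epo it was at 4.38, 8.58, 8.99, 7.26, 7.73, 7.14, 7.44 and 7.18 at 0 to 7 h, a peak at 2 h, and with Epo at 4.79, 7.22, 7.61, 7.57, 8.34, 8.25, 8.63 and 8.69. The matched difference therefore ran from -1.36 at 1 h to 1.51 at 7 h, and its slope of 0.52 ± 0.06 per h was the steepest of the members (adjusted p = 8.1e-05; 0.34 and 0.01 with the 0 h arrays as a further pair), while the mean difference did not pass (0.28 ± 0.34, adjusted p = 0.55). Chac1 was also the member with the fastest change at 1 h in both series, by 4.2 without Epo and 2.43 with it. Vldlr, a lipoprotein receptor gene that ATF4 can induce, was dim (mean above that of 25.7% of genes), at 3.18 to 3.31 without and 3.15 to 3.92 with Epo, and passed in neither direction.

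Of the 8 enzymes of amino acid synthesis 2 were lower and 2 higher with Epo, against 20.2% and 18.2% of all genes. Asns, asparagine synthetase, was the brightest member (mean 12.18) and lay between 12.28 and 12.52 without Epo and 11.71 and 12.22 with it, without overlap (-0.48 ± 0.06, adjusted p = 8.9e-05). Shmt2, the mitochondrial enzyme that splits serine into glycine and a folate-bound carbon, lay between 11.05 and 11.54 without and 10.09 and 10.94 with Epo (-0.73 ± 0.07, adjusted p = 2.4e-05), again without overlap. Both had been lower at 0 h too (-0.22 and -0.50).

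The enzymes of serine synthesis from glycolysis behaved otherwise. Psat1, the aminotransferase of the pathway, stayed between 11.75 and 11.95 with Epo and went from 11.74 at 1 h down to 11.12 at 7 h without, so that Epo was the higher by 0.37 ± 0.08 (adjusted p = 0.0029, 7 of 7 pairs; 0.23 and 0.038 as the mean of all probe sets). Psph, the phosphatase of the last step, lay between 10.38 and 10.80 with Epo and 9.48 and 10.11 without (0.61 ± 0.09, adjusted p = 0.00027, 7 of 7 pairs). These were the 2 members higher with Epo, and both were already higher at 0 h, Psat1 by 0.37 and Psph by 0.57. Phgdh, the dehydrogenase that opens the pathway, had a level of 11.03 to 11.12 without Epo at 1 to 4 h and then went to 10.36, 10.02 and 9.69. With Epo it lay between 10.29 and 10.56 throughout 1 to 7 h. Its difference ran from -0.76 at 4 h to 0.63 at 7 h and averaged -0.24 ± 0.16 (adjusted p = 0.26), and the slope passed (0.21 ± 0.04 per h, adjusted p = 0.0023), though not with the 0 h arrays as a further pair (0.13, adjusted p = 0.068).

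Mthfd2, the mitochondrial folate enzyme next to Shmt2, peaked at 10.57 at 3 h without Epo and was 9.82 at 7 h, when it was 10.73 with Epo. The slope of its difference was 0.20 ± 0.04 per h (adjusted p = 0.0014), and the mean difference did not pass. Cth, which makes cysteine from cystathionine, was the member with the largest gap at 0 h, 7.61 with and 6.36 without Epo, and the only member at least 1 apart there. At 1 to 7 h its difference ran between -0.66 and 1.30 and did not pass (0.40 ± 0.21, adjusted p = 0.16). Cbs, the enzyme of the preceding step, was dim and lay between 4.2 and 4.87 in both series. Liver cells express the serine and sulfur amino acid enzymes as well, and hepatocyte markers were higher with Epo by a median of 1.05 at these hours; their part in the values of Psph, Psat1 and Cth was not tested.

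**Figure D3:**
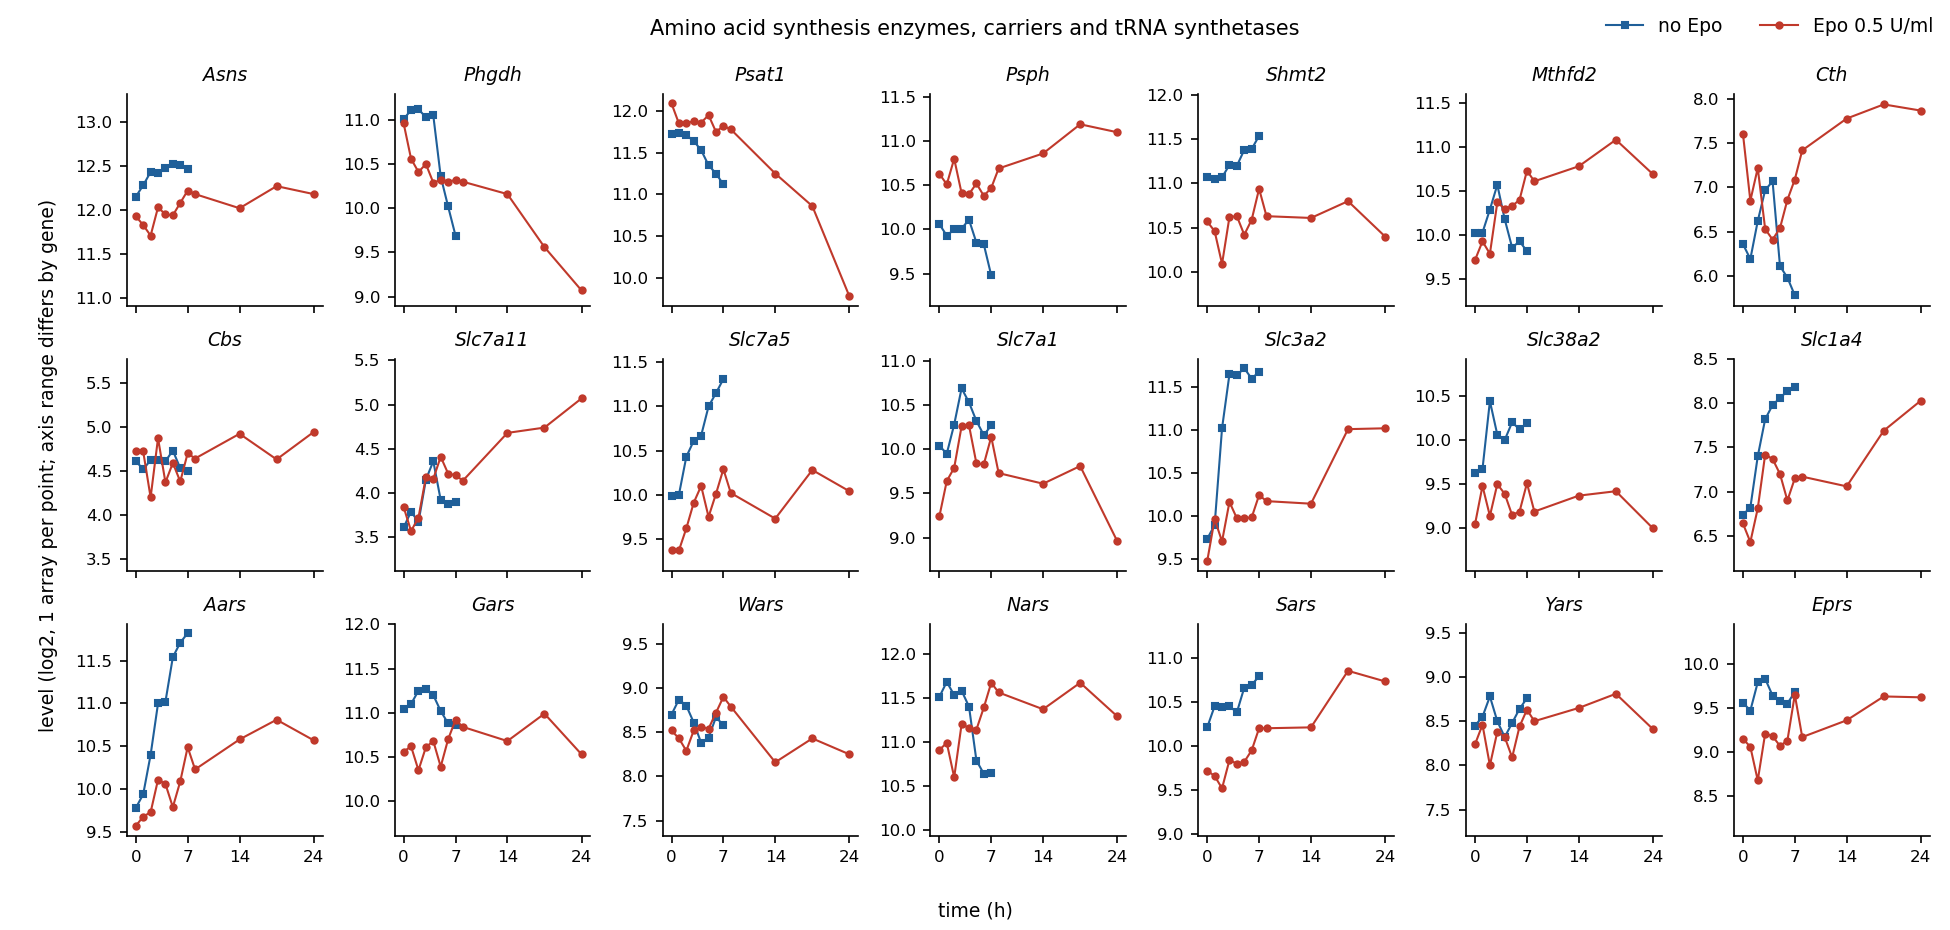
Level (log2) of the 8 synthesis enzymes, 6 carriers and 7 synthetases against time in hours, with blue squares for arrays without Epo and red circles for arrays with 0.5 U/ml Epo, 1 array per point and an axis range that differs by gene. Aars climbs from 9.78 to 11.82 without Epo, while Nars falls from 11.51 to 10.65 and Phgdh from 11.01 to 9.69.

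Carriers were lower with Epo in 5 of 6 cases. Slc3a2 encodes the heavy chain shared by several exchangers of large neutral and cationic amino acids. Its level without Epo was 9.73, 9.89, 11.02, 11.65, 11.64, 11.72, 11.60 and 11.68 at 0 to 7 h, and with Epo it stayed between 9.70 and 10.24 at 1 to 7 h. The step fell between 1 and 3 h, and the difference was -1.32 ± 0.18 (adjusted p = 0.00017, 6 of 7 pairs). With Epo Slc3a2 was 10.14 at 14 h and 11.01 and 11.02 at 19 and 24 h.

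Slc7a5, its light chain for leucine and other large neutral amino acids, lay between 10.00 and 11.31 without Epo and 9.37 and 10.29 with it (-0.87 ± 0.10, adjusted p = 3.4e-05). It was lower with Epo already at 0 h (-0.61). Slc1a4, a carrier of alanine, serine and cysteine, lay between 6.82 and 8.18 without and 6.43 and 7.42 with Epo (-0.73 ± 0.12, adjusted p = 0.00054) and differed by -0.10 at 0 h. The difference widened for Slc3a2 by -0.19 ± 0.06 per h (adjusted p = 0.046) and for Slc1a4 by -0.13 ± 0.04 per h (adjusted p = 0.043); without the pair of 1 h the slope of Slc3a2 was -0.03 (adjusted p = 0.68), and the slope of Slc1a4 missed the threshold whichever single hour was left out. Both slopes also missed it after median centring (adjusted p = 0.059 and 0.065) and as the mean of all probe sets (0.094 and 0.073).

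Slc38a2, the adaptive carrier of small neutral amino acids, did not overlap between the series, with 9.67 to 10.44 without and 9.14 to 9.51 with Epo (-0.76 ± 0.12, adjusted p = 0.00042). That call rested on 1 probe set: as the mean of all its probe sets the difference was -0.01 (adjusted p = 0.91), with the other 2 at 0.47 and 0.25. Slc7a1, the carrier of arginine and lysine, was lower at 0 h (-0.79) and lower by less at 1 to 7 h (-0.35 ± 0.07, adjusted p = 0.0025). Slc7a11, the cystine carrier, was dim, lay between 3.57 and 4.41 in both series and passed in neither direction.

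Among the synthetases, which attach amino acids to their tRNAs, Aars stood apart. It charges alanine, and without Epo its level was 9.78, 9.94 and 10.40 at 0 to 2 h, 11.02 at 4 h and 11.54, 11.71 and 11.82 at 5 to 7 h, the highest at the last hour. With Epo it lay between 9.68 and 10.49 at 1 to 7 h and at most at 10.81 later. The difference was -1.07 ± 0.16 (adjusted p = 0.00025, 7 of 7 pairs) and widened by -0.21 ± 0.04 per h (adjusted p = 0.0022).

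Sars, for serine, lay between 10.38 and 10.79 without and 9.52 and 10.20 with Epo, without overlap (-0.72 ± 0.07, adjusted p = 1.9e-05). Eprs, for glutamate and proline, was lower as well (-0.51 ± 0.11, adjusted p = 0.0037), as was Gars, for glycine (-0.47 ± 0.10, adjusted p = 0.004). All 7 synthetases were lower with Epo at 0 h as well (median -0.42), as were 5 of 6 carriers (median of the 6 -0.42), against 9382 of all 18193 genes (median -0.01). These are differences between 2 arrays.

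Nars, for asparagine, crossed over. Without Epo it was between 11.40 and 11.68 at 1 to 4 h and then 10.79, 10.64 and 10.65, while with Epo it was 10.99 and 10.60 at 1 and 2 h and 11.67 at 7 h. The slope of its difference was 0.33 ± 0.03 per h (adjusted p = 2.1e-05), with a mean of -0.02 ± 0.21 (adjusted p = 0.95). Wars and Yars, for tryptophan and tyrosine, passed in neither direction on the mean, at -0.06 ± 0.11 and -0.25 ± 0.11. The slope of Wars was 0.13 ± 0.04 per h (adjusted p = 0.027), and that of Gars 0.11 ± 0.03 (adjusted p = 0.042); both missed the threshold in some fits without 1 hour, and Gars also without the variance trend (0.12), as the mean of all probe sets (0.065) and with the 0 h arrays as a further pair (0.12).

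Because the series differed at 0 h, the difference at 1 to 7 h was also taken from the difference at 0 h, with a linear drift allowed. Only 1 array of each series stands behind the subtracted value, which makes the result less precise. Only Ddit3 (-3.03 ± 0.51, adjusted p = 0.0067) and Ppp1r15a (-1.57 ± 0.20, adjusted p = 0.0018) passed as lower and none as higher, against 2.39% and 1.34% of all genes. The medians by role were -1.11 for regulators, -0.92 for stress effectors, -0.18 for synthesis, -0.22 for carriers and -0.03 for synthetases, against 0.01 over all genes. For carriers and synthetases these medians compare with -0.74 and -0.47 for the matched hours alone. Without the 1 h pair 12 members passed as lower and 2 as higher, against 6.54% and 4.5% of all genes, among them Atf3 (-2.57), Ddit4 (-2.16), Nupr1 (-1.73), Slc3a2 (-1.29), Herpud1 (-1.24), Trib3 (-1.20) and Aars (-0.99) as lower and Nars (0.70) and Mthfd2 (0.51) as higher. Of the granulocyte markers 2 of 12 passed as higher from 0 h and none as lower (median 0.80), and hepatocyte markers passed in neither direction (median -0.33); their part in these values was not tested. Without a drift term no member passed, with Ddit3 at an adjusted p of 0.16 and Ppp1r15a at 0.19.

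**Figure D4:**
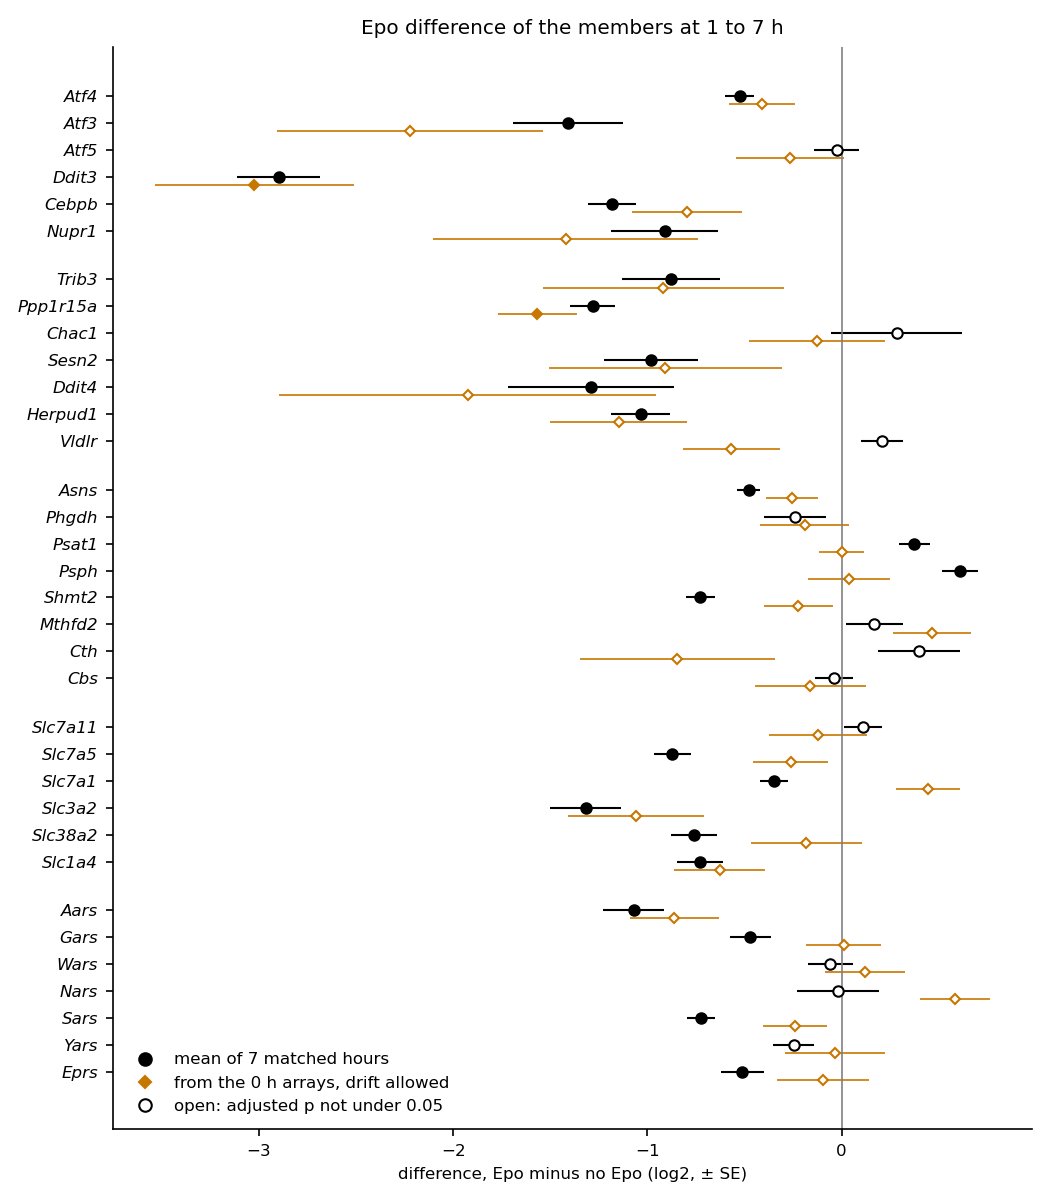
Difference of each member between the series at 1 to 7 h (log2, level with Epo minus level without, bars ± SE), as the mean of 7 matched hours (black circles) and measured from the 0 h arrays with drift allowed (orange diamonds); filled symbols passed an adjusted p under 0.05. Shmt2, Slc7a5, Slc38a2, Sars and Eprs lie nearer to 0 once 0 h is taken off, and Ddit3 and Ppp1r15a are the only filled diamonds.

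The next comparison asked whether the Epo difference changed over 1 to 7 h. It became more positive for 8 members (Chac1, Nars, Phgdh, Mthfd2, Ppp1r15a, Wars, Gars and Psat1) and more negative for 3 (Aars, Slc3a2 and Slc1a4), against 7.25% and 7.97% of all genes. For Psat1, whose difference was positive throughout, it widened by 0.10 ± 0.02 per h (adjusted p = 0.0038; 0.068 without the variance trend). Synthesis enzymes and synthetases each gave 3 of the 8. The regulators gave none, and their largest differences lay at 3 to 5 h. The count of 8 was 5 without the pair of 2, 6 or 7 h, and the count of 3 was 1 without that of 1, 4, 5 or 6 h. Without the 1 h pair 15 members passed as more positive and 1 as more negative, against 6.13% and 5.89% of all genes, with Atf3 (0.20), Nupr1 (0.24) and Trib3 (0.20) among the 15 and their sign turned.

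Each series was then followed over its own first 7 h as a slope per hour from 0 to 7 h. Without Epo 13 members rose and 3 fell, against 13.3% and 15.4% of all genes. With Epo 14 rose and 2 fell, against 2.21% and 5.88% of all genes. Over the same hours all 11 hepatocyte markers fell in both series, erythroid markers gave 7 of 10 up and none down without Epo and 3 up and 1 down with it, and granulocyte markers gave 7 and 2 of 12 down and none up; their part in the members' slopes was not tested. The risers without Epo were led by Ddit3 (0.64 ± 0.13 per h, adjusted p = 0.003), Trib3 (0.62 ± 0.14, adjusted p = 0.0044) and Nupr1 (0.49 ± 0.11, adjusted p = 0.0048), and those with Epo by Trib3 (0.48 ± 0.06, adjusted p = 0.00011), Chac1 (0.44 ± 0.07, adjusted p = 0.002) and Ddit3 (0.32 ± 0.03, adjusted p = 2.7e-06). From 1 to 7 h only, Ddit3 rose by 0.38 per h without Epo and Chac1 by 0.25 with it. Nars fell without Epo (-0.16 ± 0.03 per h, adjusted p = 0.00082) and rose with it (0.11 ± 0.02, adjusted p = 0.013; 0.08 and adjusted p = 0.11 without 7 h). Psat1 (-0.09 ± 0.01) and Phgdh (-0.20 ± 0.04) fell without Epo too, and Phgdh (-0.07 ± 0.02) and Vldlr (-0.16 ± 0.03) fell with it. Vldlr did not pass as the mean of all probe sets (-0.06, adjusted p = 0.096). Phgdh with Epo did not pass without the 0 h array (-0.04, adjusted p = 0.35). Nor did it after median centring (0.086), as the mean of all probe sets (0.089) or without the variance trend (0.1). Without the 0 h array 5 members fell without Epo, Chac1 and Gars being added, and 1 fell with Epo when 0, 1, 3, 4, 5 or 6 h was left out. A straight line describes genes that peaked or levelled off early poorly. Ddit4, Atf3, Sesn2, Herpud1 and Ppp1r15a did not pass without Epo although each lay at least 1 above its start. Chac1 without Epo at 1 to 7 h, with its start left out, fell at -0.26 per h (adjusted p = 0.014).

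**Figure D5:**
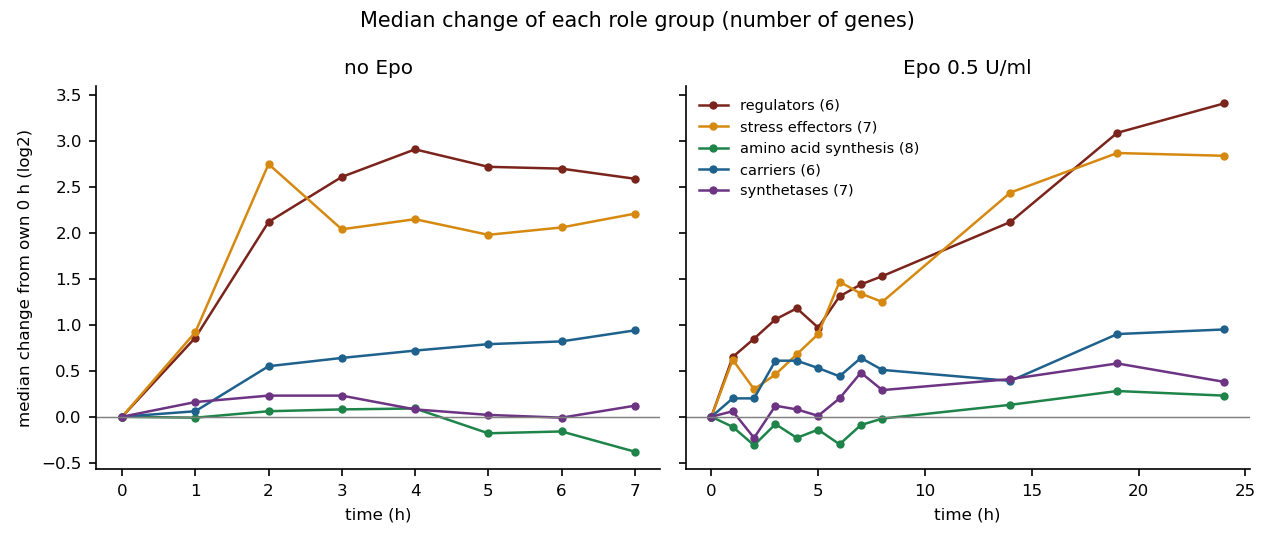
Median change from the 0 h array of the same series (log2) for each role group against time in hours, without Epo on the left and with 0.5 U/ml Epo on the right; the number of genes is in the legend and no error is drawn because each time has 1 array. Regulators reach 2.91 at 4 h without Epo and 1.18 at 4 h with it, then 3.41 at 24 h with Epo, while synthesis enzymes stay between -0.38 and 0.28.

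The role medians gave the same picture by hour. Without Epo the median change of the regulators from 0 h was 0.86 at 1 h, 2.12 at 2 h and 2.91 at 4 h, and that of the stress effectors 0.92, 2.75 and 2.15. With Epo these were 0.65, 0.85 and 1.18, and 0.62, 0.30 and 0.68. Synthetases did not go beyond 0.23 without Epo and 0.58 with it, and synthesis enzymes lay between -0.38 and 0.28 over both series.

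The last comparison set the late arrays with Epo, at 14, 19 and 24 h, against those at 1 to 8 h. The late hours have no arrays without Epo, so time in culture and Epo cannot be told apart there. Late levels were higher for 17 members and lower for 4, against 17.6% and 18.5% of all genes (median 0.54 against 0.08 over all genes). All 6 regulators rose, led by Ddit3 (3.20 ± 0.38, adjusted p = 3.7e-05), Nupr1 (3.12 ± 0.38, adjusted p = 4.6e-05) and Atf5 (2.38 ± 0.32, adjusted p = 8.8e-05). Of the stress effectors Trib3 (2.94 ± 0.45), Ppp1r15a (1.91 ± 0.24), Sesn2 (1.83 ± 0.27) and Ddit4 (1.19 ± 0.29) rose, Vldlr fell, and Chac1 and Herpud1 passed in neither direction. Chac1 did pass as higher after quantile normalization (0.74, adjusted p = 0.049).

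Serine synthesis went apart at the late times. Psat1 was at 11.25, 10.86 and 9.78 and Phgdh at 10.16, 9.56 and 9.07 at 14, 19 and 24 h, both lower than before (-1.21 ± 0.20, adjusted p = 0.00037, and -0.78 ± 0.16, adjusted p = 0.002). Psph was at 10.86, 11.19 and 11.10 and rose (0.53 ± 0.11, adjusted p = 0.0021), as did Cth (1.00 ± 0.20, adjusted p = 0.0013) and Mthfd2 (0.54 ± 0.17, adjusted p = 0.024). The 2 enzymes that fell and the 3 that rose thus include neighbours in 1 pathway.

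Of the carriers and synthetases Slc7a11 (0.76 ± 0.17, adjusted p = 0.0028), Slc3a2 (0.70 ± 0.17, adjusted p = 0.0046), Sars (0.72 ± 0.16, adjusted p = 0.003) and Aars (0.63 ± 0.16, adjusted p = 0.0057) rose, and Slc7a1 fell (-0.48 ± 0.18, adjusted p = 0.049; -0.23 and 0.35 without 24 h). Vldlr did not pass without 19 or 24 h, nor Mthfd2 without 19 h. As the mean of all probe sets the late difference of Ddit3 was 1.98 and that of Phgdh -0.33, and Vldlr and Slc7a1 no longer passed, while Aars did not pass on its probe set without a suffix (0.32, adjusted p = 0.22). Without 24 h Psat1 was lower by less (-0.78). Set against 6 to 8 h only, Ddit4, Slc3a2, Aars, Sars, Mthfd2, Phgdh, Vldlr and Slc7a1 no longer passed. Hepatocyte markers fell (median -3.34) between the same hours, with 10 of 11 lower, and 6 of 10 erythroid markers rose; their part in the late values was not tested.

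At 24 h with Epo 9 members lay at least 1 above their level without Epo at 7 h, 6 lay at least 1 below and 19 within 1, against 7.01% of all genes above and 16.7% below. Above were 3 of 6 regulators, Nupr1 by 2.56, Atf5 by 2.32 and Atf3 by 1.33, and 3 of 7 stress effectors, Trib3 by 2.18, Chac1 by 1.37 and Ppp1r15a by 1.07. The other 3 above were Cth by 2.09, Psph by 1.61 and Slc7a11 by 1.17. Slc7a1, Slc7a5, Slc38a2, Aars, Shmt2 and Psat1 were the 6 below, with differences between -1.34 and -1.14. These are differences of single arrays at different hours, with no test.

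Other genes of the pathway gave mixed results between the series at 1 to 7 h, when 20.2% of all genes were lower and 18.2% higher with Epo. Of 14 genes for eIF2 kinases and eIF2 control measured, 6 were lower and 1 higher with Epo (median -0.25). The lower ones included Ppp1r15b, a constitutive partner of the eIF2 phosphatase (-1.23 ± 0.17), the heme-regulated kinase gene Eif2ak1 (-0.90 ± 0.12) and the ER stress kinase gene Eif2ak3 (-0.89 ± 0.09), and the higher one was Eif2b3, a subunit of the exchange factor (1.34 ± 0.28). Eif2ak3 and Ppp1r15b were lower at 0 h already (-0.87 and -0.79), and Eif2ak1 lay at -0.11. Of 12 other cytosolic synthetases 6 were lower and 2 higher (median -0.35), with Vars at -0.75 ± 0.09 and Rars at 0.83 ± 0.28. Of 16 mitochondrial synthetases 5 were lower and 4 higher (median 0.04), with Ears2 at -0.91 ± 0.14 and Yars2 at 1.14 ± 0.19.

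Over the hours without Epo 7 of the 12 other cytosolic and 8 of the 16 mitochondrial synthetases fell, and 0 and 1 rose. Of all genes 15.4% fell and 13.3% rose over those hours. For the lists that follow, the shares of all genes were again 20.2% lower and 18.2% higher with Epo. Of 12 other enzymes of amino acid and folate metabolism 6 were lower and 3 higher with Epo (median -0.08), with glutamine synthetase, Glul, at -1.07 ± 0.13 and the folate enzyme gene Mthfd2l at 1.35 ± 0.10, after 1.16 at 0 h. Of 19 other carriers 8 were lower and 3 higher (median -0.13), with Slc7a7 at -1.15 ± 0.23 and the glutamine carrier Slc1a5 at -0.94 ± 0.10. Of 15 genes of the other ER stress arms 5 were lower and 1 higher (median -0.11), with Atf6, an ER-bound transcription factor, at -0.98 ± 0.13 after -0.54 at 0 h.

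The members can also be split by the promoter letters shown above. Of the 12 with TGATGNAA 7 lay at least 1 above their start without Epo and 8 were lower with Epo (median difference -0.60), and of the 18 with a window that lacks it 7 lay that far above and 12 were lower (median -0.62). The median change without Epo was 1.15 with the element and 0.35 without it. These are counts in a list, with no test.

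Most members had more than 1 probe set. There were 24 other probe sets of members called between the series, and 20 of them had the called direction, whatever the size. Members not called were not counted, and the probe sets of Phgdh, for example, lay between -0.31 and 0.13. Of the 34 representative probe sets 7 carry a suffix that marks possible cross-hybridisation with other genes, and 7 a suffix for several transcripts of the same gene.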

How the data were processed

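Expression was measured on 20 arrays, 12 with Epo and 8 without. The authors deposited 1 value per probe set and array, taken as log2 because they run from 1.37 to 14.56. The method by which the authors summarised and scaled probe signals into log2 values is not given in the sources used. Arrays have no depth, so their number limits the precision. The annotation gave 1 gene for 34945 of 45101 probe sets, several for 932 and none here for 9160, and 64 were controls. Each gene was read from its probe set with the highest mean, which gave 18193 genes with no filter on dim ones.

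Comparisons were fitted over all genes with limma 3.58.1 in R 4.3.3, using eBayes with a variance trend. A gene was called when its p, adjusted by Benjamini and Hochberg's method, was under 0.05. Time was a block in the comparisons between the series. SE is from the fit, and differences are in log2. The fits were tested on simulated data with independent noise in each array, without dependence between hours or a difference in preparation. Non-overlap, 0 h values and role medians have no test. The members and gene lists were chosen with earlier results of these data known. Named genes were all 34 members, members with a searched motif and up to 4 called genes with the largest change per other list; Tfrc, Klf1 and Hba-a1 were named as markers. Promoter windows of assembly GRCm38.p6 came from RefSeq. Alternatives were quantile normalization, median centring, the brighter genes, other choices of probe set, no variance trend, each time left out, no block and other uses of the 0 h and late arrays. Plots were drawn with matplotlib 3.10.9 under Python 3.11.15, from tables made with pandas 2.3.3.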

Additional observations from a re-analysis of the deposited data

Results flagged for a closer look

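In 68 groups of 7 arrays (each member, each series, 1 to 7 h) the lowest or highest array was set against its neighbours, and 9 stood apart, where chance flags about 5% of groups of unordered values; these values follow time, so neighbouring hours are not independent. Without Epo the 1 h array stood apart as the lowest for 7 members: Atf4 (11.44), Ddit3 (8.71), Nupr1 (4.95), Trib3 (6.26), Sesn2 (6.39), Asns (12.28) and Slc3a2 (9.89). Each of these 7 lay higher from 2 h on. Herpud1 stood apart as highest at 2 h without Epo (10.85), and Psph as highest at 2 h with Epo (10.80).

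The time course differed between the series, by a test of the slope of the Epo difference (log2 per h, limma, adjusted over all genes), for 11 members. The slope was positive for Chac1 (0.52), Nars (0.33), Phgdh (0.21), Mthfd2 (0.20), Ppp1r15a (0.14), Wars (0.13), Gars (0.11) and Psat1 (0.10), and negative for Aars (-0.21), Slc3a2 (-0.19) and Slc1a4 (-0.13).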

How the results depend on the processing

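Scaling moved no array's median by over 0.1. The standard deviation over all genes was lowest in the 24 h array with Epo (2.42) and 2.67 at 0 h in that series. After quantile normalization Chac1 (0.74, adjusted p = 0.049), Slc1a4 (0.76, 0.024), Yars (0.48, 0.0079) and Eprs (0.53, 0.016) also passed as higher late with Epo. Slc7a1 then no longer passed as lower (-0.29, 0.17). Between the series at 1 to 7 h every alternative kept the sign of the members called in either fit, with 18 to 22 called lower and 2 to 3 higher when 1 hour was left out, and 1 higher among the 26 members with a probe set without a suffix. Signs also changed for 95 of 3062 member values called in neither fit.

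Turned signs among called values were, for the slope of the Epo difference, Atf3 (0.20 without 1 h, the lowest being -0.24), Nupr1 (0.24 and -0.24) and Trib3 (0.20 and -0.23) and Ppp1r15a (-0.04) with 0 h as a further pair, and for time without Epo Chac1 (-0.26) from 1 to 7 h only, which is the fit without 0 h, against 0.23 without 1 h.

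With 1 hour left out the slope gave 5 to 15 members and 875 to 1316 genes as more positive, and 1 to 3 and 861 to 1401 as more negative. From the own 0 h it gave 0 to 2 members and 45 to 818 genes as higher and 2 to 12 and 128 to 1189 as lower. Without Epo 3 to 5 members fell. With Epo 1 to 2 members fell, 233 to 381 genes rose and 682 to 1063 fell. Late with Epo 2 to 4 members and 2418 to 3609 genes were lower and 1814 to 3646 genes higher. Over all genes the fewest calls came without 6 h in the early comparisons, except for genes lower with Epo (without 5 h), and without 24 h in the late one.

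Median centring left 1 member with a more negative slope and 1 that fell with Epo. The mean of all probe sets left 1 with a more negative slope, 0 that fell with Epo and 2 lower late, and from the own 0 h 138 genes higher and 276 lower. Among the 26 members with a probe set without a suffix, 8 rose and 1 fell without Epo, 0 fell with Epo, and 11 were higher and 0 lower late. The brighter genes, 9096 with 31 members among them, gave 1 member that fell with Epo and 1775 genes higher late. Counts from these 2 smaller sets cannot be set directly against those of the main fit, which had 34 members and 18193 genes. No variance trend gave 1 that fell with Epo, and from the own 0 h 93 genes higher and 234 lower. With 0 h as a further pair 5 slopes were more positive. Without drift the own 0 h fit gave 3 genes higher, 9 lower and 0 members lower. From 1 to 7 h only, 5 members fell without Epo, and 1 member and 693 genes fell with it. Against 6 to 8 h, 1 member was lower late, with 1045 genes higher and 1851 lower. The cause of these changes was not tested.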
